A study of Homo sapiens with 12 samples.

Results

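PML, SP100, SP110, SP140L and DAXX were followed as the genes of the PML nuclear body and of the SP100 family. They were taken by gene symbol and are 5 of the 60099 genes in the deposited table, together with the 22 transcripts of PML and the 19 transcripts of SP100 among 201521 transcripts. The measurements are bulk RNA sequencing of Cal27 and HN30, established cell lines of head and neck squamous cell carcinoma (HNSCC), either left without interferon or exposed for 24 h to the type I interferon IFNα. The 12 samples form 6 letters of 2 replicates. Controls are letters A and D, the dose of 20 ng/ml is letters B and E, and that of 200 ng/ml is letters C and F. Letters A to C and D to F each hold every dose and were treated as the 2 line sets, A-C and D-F. Neither the labels nor the paper's text names which set is which line, and no gene was altered in either. The labels do not say whether the replicates were separate cultures, so the p-values measure only the spread between these samples.

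PML nuclear bodies are dot-like structures of the nucleus that form on a shell of the PML protein and hold proteins modified by the small modifier SUMO. They take part in antiviral defence, in chromatin assembly and in the DNA damage response, and the PML and SP100 genes are textbook targets of interferon. PML is the scaffold of the body and is fused to the retinoic acid receptor in acute promyelocytic leukaemia. SP100 is a resident protein of the bodies and an autoantigen in primary biliary cholangitis. SP110, SP140 and SP140L are its relatives, which share SAND, PHD and bromodomain modules that read DNA and chromatin. DAXX, with its partner ATRX, deposits a replacement form of histone H3 and binds SUMO on PML. SP100, SP110 and SP140L lie close together on chromosome 2, at positions 230415942 to 230544090, 230167293 to 230225729 and 230327184 to 230403732 of GRCh38 as the deposited table gives them. PML lies on chromosome 15 at 73994673 to 74047812, and DAXX on chromosome 6 at 33318558 to 33329286.

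Promoter windows of 250 bases before and 50 bases from the start of a transcript on were available from RefSeq (GRCh38.p14) for SP100, SP110 and SP140L and for SP140, with 6 windows in all. The SP100 and SP140L windows are shown because they were the most alike of the 15 pairs and the genes are neighbours in the family. Capitals mark the 7 runs of at least 12 bases that were identical in a global alignment, which together cover 200 bases of each window.
SP100 chr2:230415951-230416250 plus strand: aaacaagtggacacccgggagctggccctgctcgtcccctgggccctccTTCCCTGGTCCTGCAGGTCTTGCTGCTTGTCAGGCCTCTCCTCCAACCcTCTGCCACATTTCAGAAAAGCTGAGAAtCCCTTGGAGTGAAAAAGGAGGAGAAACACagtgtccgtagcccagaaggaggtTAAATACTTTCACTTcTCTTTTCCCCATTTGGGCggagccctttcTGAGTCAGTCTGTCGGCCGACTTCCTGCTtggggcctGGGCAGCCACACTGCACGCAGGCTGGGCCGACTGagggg
SP140L chr2:230326943-230327242 plus strand: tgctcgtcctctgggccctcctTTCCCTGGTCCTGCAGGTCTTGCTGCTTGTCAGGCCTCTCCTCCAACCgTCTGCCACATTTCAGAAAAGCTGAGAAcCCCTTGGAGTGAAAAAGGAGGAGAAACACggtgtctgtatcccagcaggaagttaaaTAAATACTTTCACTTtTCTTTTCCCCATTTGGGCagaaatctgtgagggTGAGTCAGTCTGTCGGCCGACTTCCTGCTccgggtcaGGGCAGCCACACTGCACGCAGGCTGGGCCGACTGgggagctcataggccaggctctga
The 2 windows were identical at 253 of 272 aligned base pairs (93.01%), or at 77.1% of the 328 alignment columns, with a longest run of 48 bases. The other 14 pairs were identical at 46.9% to 56.7% of their columns. The SP110 window at which 6 annotated transcripts start within 100 bases is shown for the run that it has in common with SP140L, and capitals mark its motif matches.
SP110 chr2:230219935-230220234 minus strand: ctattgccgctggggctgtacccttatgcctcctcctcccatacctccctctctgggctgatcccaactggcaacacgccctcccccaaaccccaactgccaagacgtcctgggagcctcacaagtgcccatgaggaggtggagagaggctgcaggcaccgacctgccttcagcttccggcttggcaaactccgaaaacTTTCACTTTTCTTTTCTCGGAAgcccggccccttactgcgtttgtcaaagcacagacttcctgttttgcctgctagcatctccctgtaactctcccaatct
The run ACTTTCACTTTTCTTTTC of 18 bases stands in this window and in that of SP140L, and in no other of the 35116 RefSeq windows. It was picked as the longest run in the alignment of these 2 windows, so its absence elsewhere rests partly on that choice. Most of it was also found in other windows of the family. The SP110 window shown has 16 of these bases in a row in common with SP140, and 10 with the SP100 window shown. The run is therefore not evidence of an element particular to SP110 and SP140L. In each window 3 motifs were searched on both strands. The interferon-stimulated response element (ISRE, GAAA, any 2 bases, GAAA) was matched in 0 of the 6 windows and in 3.57% of all windows. The STAT site (GAS, TTCNNNGAA) was matched in the SP110 window shown, at position -38 from the start, and in 7.66% of all windows. The core shared by sites of interferon regulatory factors (AANNGAAA) was added after the windows had been read. It was matched in 5 of the 6 windows, at positions -51 and -44 of SP110, -87 and -80 of SP140L and -64 of SP100 in the windows shown, and in 22.8% of all windows. On SP110, the match at -44 overlaps those at -51 and -38. The windows of SP140 and of the outer SP110 start overlap each other. A match gives letters only and does not show that a factor was bound.

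The level of each gene is given as TPM, a transcript abundance that is scaled for length and depth and can be compared between genes. SP100 was measured at 48.9 and 46.1 TPM in controls A1 and A2, at 139 and 131 in B1 and B2 and at 160.1 and 156 in C1 and C2. In the other line set it was at 45.7 and 40.4 in D1 and D2, at 142 and 127 in E1 and E2 and at 178 and 159 in F1 and F2. All 8 treated samples lay above all 4 controls, and the controls of the line sets were close. SP110 was at 40.4 and 39.8 TPM in A1 and A2, at 127 and 129 in B1 and B2 and at 238 and 209 in C1 and C2. It was at 28.8 and 23.0 TPM in D1 and D2, at 118 and 164 in E1 and E2 and at 163 and 146 in F1 and F2. Here too no treated sample reached down to a control, but the 2 doses were separate in A-C and overlapped in D-F.

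PML was the member whose level depended most on the line set. It was at 99.5 and 109.7 TPM in A1 and A2, at 165 and 166 in B1 and B2 and at 175 and 184 in C1 and C2. In D-F it was at 41.2 and 37.6 TPM in D1 and D2, at 87.3 and 91.6 in E1 and E2 and at 100.7 and 93.7 in F1 and F2. Treated samples lay above the controls of their own set, but the treated samples of D-F reached only about the level of the untreated samples of A-C, and letters F and A overlapped. SP140L, a family member with few known functions, was at 21.9 and 24.8 TPM in A1 and A2, 42.4 and 50.5 in B1 and B2 and 57.6 and 57.0 in C1 and C2. It was at 36.4 and 37.3 TPM in D1 and D2, 48.2 and 43.1 in E1 and E2 and 64.7 in both F1 and F2. The lowest treated sample, B1, was above the highest control, D2. DAXX was at 45.5 and 47.3 TPM in A1 and A2, 31.01 and 36.8 in B1 and B2 and 33.0 and 38.3 in C1 and C2. In D-F it was at 28.9 and 24.0 TPM in D1 and D2, 40.9 and 47.5 in E1 and E2 and 42.6 and 32.1 in F1 and F2. Its treated samples lay below the controls in A-C and above them in D-F, so that over both sets treated and control samples overlapped. Among neighbours in the order of letter means, letters E and B overlapped for SP100, SP110 and SP140L, C and F for SP100, E and F for SP110, F and A for PML, and B, C, F, E and A in a chain for DAXX, while the other neighbours were separate.

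**Figure D1:**
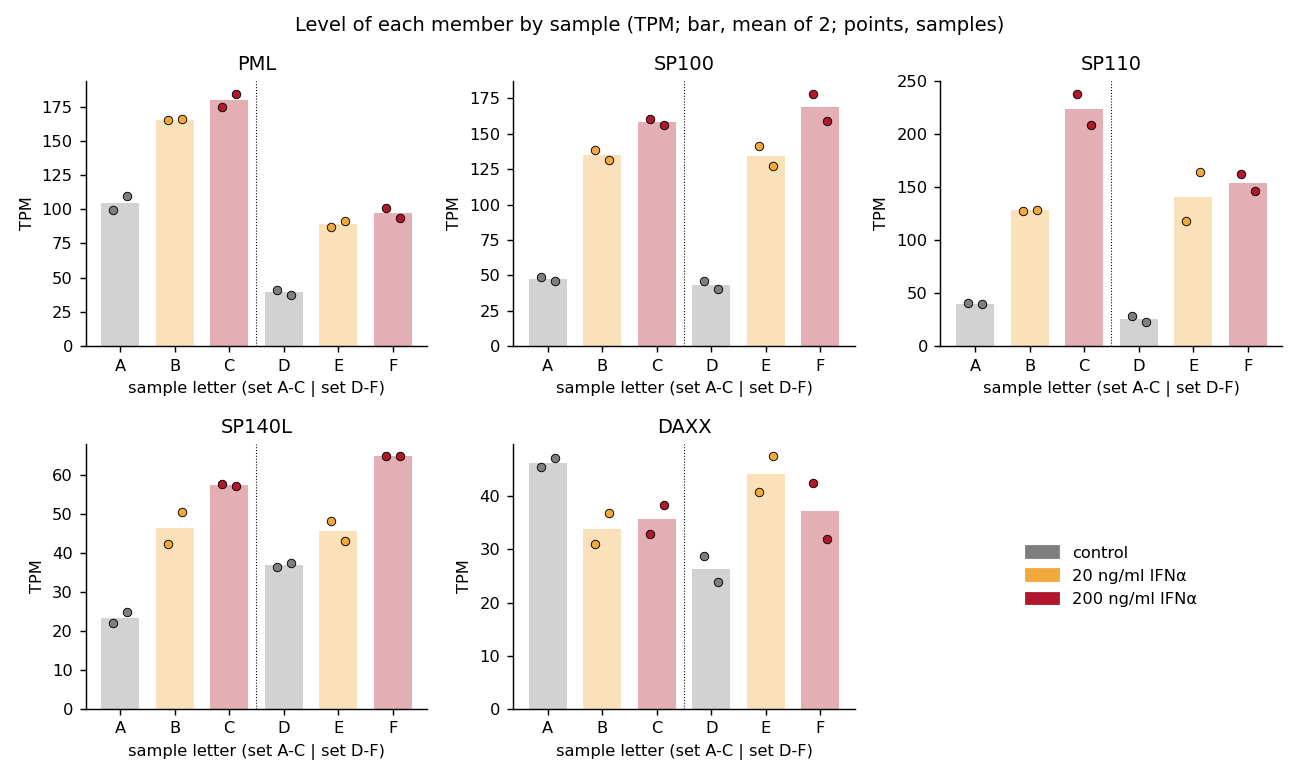
TPM of the 5 genes in each sample (points) by sample letter, with the mean of the 2 replicates as a bar, in grey for controls, orange for 20 ng/ml and red for 200 ng/ml IFNα. SP100 and SP110 rise from between 23.0 and 48.9 TPM in the controls to between 118 and 238 TPM in treated samples, whereas DAXX stays between 24.0 and 47.5 TPM in all samples.

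Differences between doses were tested on the estimated counts with edgeR's quasi-likelihood test in one fit of all 12 samples, averaged over the line sets, with p-values adjusted over the 19944 genes that passed the filter on low counts. A gene is called when its difference reaches 2-fold and its adjusted p-value is 0.05 or less. All 5 genes passed the filter. At 200 ng/ml against control, SP100, SP110 and PML were called higher, 3 of 5 genes, while 2.14% of all genes tested were called in either direction and 1.58% were called higher. SP110 differed most, with a log2 fold change of 2.39 (SE 0.103, 5.25-fold, edgeR adjusted p = 4.2e-07). SP100 followed with 2.04 (SE 0.0710, 4.12-fold, adjusted p = 7.6e-08). PML stood just above 2-fold with 1.06 (SE 0.0482, 2.09-fold, adjusted p = 6.4e-07). SP140L was higher by 0.91 on the log2 scale (SE 0.0859, 1.87-fold, edgeR adjusted p = 1.8e-04), which passes the p threshold and not the fold. By mean log2 TPM SP140L differed by 1.06, above 2-fold, so its place against the fold threshold depends on the measure. SP110, SP100 and PML differed by 2.53, 1.85 and 1.04 in log2 TPM. By counts, DAXX differed by 0.04 (SE 0.161, edgeR adjusted p = 0.94), with a 95% interval from -0.27 to 0.36. In bulk samples, fewer cells that carry an RNA and less of it per cell cannot be told apart.

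At 20 ng/ml, SP110 and SP100 were called higher, 2 of 5 genes against 1.15% of all genes tested. The log2 fold changes were 1.86 for SP110 (SE 0.102) and 1.79 for SP100 (SE 0.0705). PML, at 0.90 (SE 0.0481, edgeR adjusted p = 2.6e-06), and SP140L, at 0.54 (SE 0.0858, adjusted p = 0.0073), passed the p threshold below 2-fold, and DAXX was at 0.03 (SE 0.161, adjusted p = 0.99). The higher dose is 10 times the lower. Between the doses 0 of 5 genes were called by edgeR, by DESeq2 or at an unadjusted p of at most 0.05, against 0.0451% of all genes. The log2 difference of 200 over 20 ng/ml was 0.53 for SP110 (SE 0.0973, edgeR adjusted p = 0.11), 0.37 for SP140L (adjusted p = 0.24), 0.26 for SP100 (adjusted p = 0.29), 0.16 for PML (adjusted p = 0.36) and 0.01 for DAXX (adjusted p = 1.00). All 5 point estimates were above 0, and none passed the edgeR threshold. With DESeq2 the adjusted p was 4.4e-04 for SP110 and 0.040 for SP140L, so that both missed a call only by the fold. The comparisons with control share the control samples.

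The same comparisons within each line set show where the average hides a difference. For SP100 the log2 fold changes at 200 ng/ml were 2.101 in A-C and 1.99 in D-F, and for SP110 they were 2.42 and 2.36, nearly equal in both genes. By mean TPM, SP100 went from 47.5 to 158 in A-C and from 43.1 to 169 in D-F. SP110 went from 40.1 to 224 and from 25.9 to 154. On TPM the slightly larger fold was thus in D-F for both genes, so the order of the sets depends on the measure. For PML the log2 fold changes were 0.79 (SE 0.0675) in A-C and 1.33 (SE 0.0690) in D-F, so that the response was larger in the set with the lower control level. For SP140L they were 1.14 (SE 0.122) in A-C and 0.67 (SE 0.121) in D-F. SP100, SP110 and SP140L were therefore called in A-C (3 of 5 genes, with 2.18% of all genes called), and PML, SP100 and SP110 in D-F (3 of 5 genes, with 2.09%). At 20 ng/ml SP100 and SP110 were called in A-C (0.712% of all genes), and these and PML in D-F (1.41%).

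Whether the responses differed between the sets was tested as an interaction. At 200 ng/ml 0 of 5 genes were called, by edgeR, by DESeq2 or at an unadjusted p of at most 0.05, against 0.998% of all genes. The PML response was larger in D-F than in A-C by 0.54 on the log2 scale (SE 0.0956, edgeR adjusted p = 0.029), which is under 2-fold. That p-value was between 0.033 and 0.12 when single samples were left out, at most 0.05 in 2 of 12 such fits, and stood at 0.082 once replicate number was blocked and at 9.9e-04 with DESeq2. The SP140L response was smaller in D-F (log2 difference of -0.47, SE 0.171, edgeR adjusted p = 0.19), and SP100, SP110 and DAXX differed by -0.12, -0.06 and 0.35 with adjusted p-values of 0.73, 0.94 and 0.64. At 20 ng/ml the edgeR test again called 0 of 5 genes (0.231% of all genes). The smallest edgeR adjusted p there was that of PML, whose response was again larger in D-F, by 0.53 (SE 0.0956, edgeR adjusted p = 0.065, DESeq2 adjusted p = 0.0024). SP110 differed by 0.60 (edgeR adjusted p = 0.31), SP140L by -0.51 (adjusted p = 0.31) and SP100 by -0.07 (adjusted p = 0.93). DAXX had the largest difference, with a log2 fold change of -0.56 in A-C and 0.61 in D-F and a difference of 1.17 (SE 0.323, edgeR adjusted p = 0.21), and it was the 1 gene called by DESeq2 (adjusted p = 0.046) and at an unadjusted p.

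**Figure D2:**
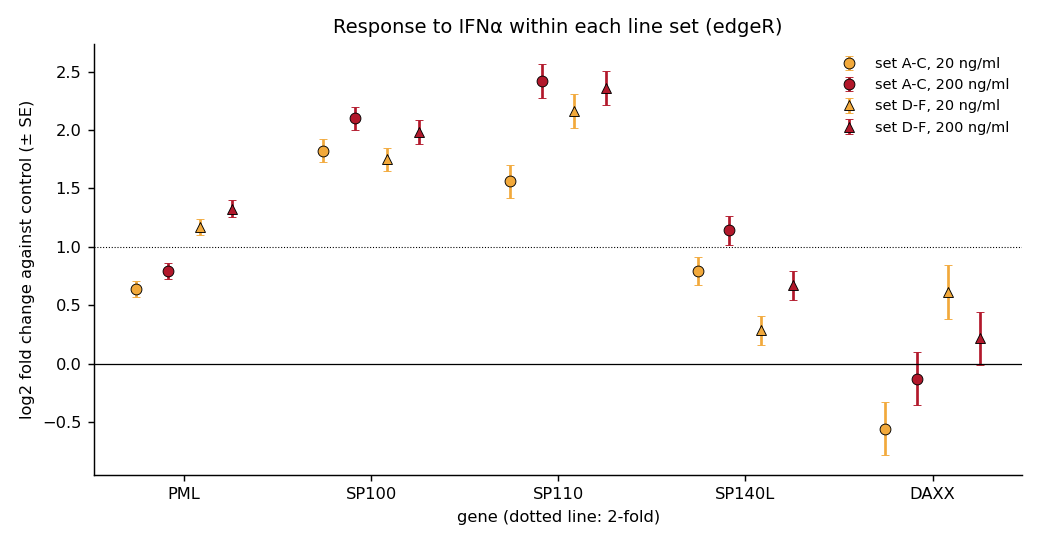
Log2 fold change against control (edgeR, bars are SE) for each gene within set A-C (circles) and set D-F (triangles) at 20 ng/ml (orange) and 200 ng/ml (red) IFNα, with the dotted line at 2-fold. SP100 and SP110 lie above the line in all 4 comparisons, PML only in D-F and SP140L only in A-C at 200 ng/ml.

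Without treatment, PML was lower in D than in A by a log2 difference of -1.73 (SE 0.0695, 3.32-fold, edgeR adjusted p = 1.8e-07) and was the 1 of 5 genes called, while 26.6% of all genes were called between the untreated sets. SP110 (-0.66, adjusted p = 0.0041) and DAXX (-0.75, adjusted p = 0.023) were lower in D and SP140L was higher (0.37, adjusted p = 0.032), all under 2-fold. SP100 differed by -0.14 (SE 0.0986, edgeR adjusted p = 0.27). The proportions of the members to each other are given as ratios of TPM. PML was at 2.03 and 2.38 times the TPM of SP100 in controls A and at 0.90 and 0.93 times in controls D. At 200 ng/ml the ratio was 1.09 and 1.18 in C and 0.565 and 0.590 in F. The log2 ratio differed by -0.81 between 200 ng/ml and control, and within each set control and treated ratios did not overlap (exact permutation of doses inside the sets, two-sided, p = 0.0556, the smallest that 36 arrangements can give). The ratio of SP100 to SP140L was between 1.09 and 2.24 in the 4 controls and between 2.46 and 3.27 in the 8 treated samples, and its log2 value was 0.80 above control at 200 ng/ml (exact permutation p = 0.0556, again the smallest possible). Both ratios were chosen after the levels had been seen, so these p-values describe the same values and are no independent test.

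Transcripts of SP100 differed in composition as well as in sum, with the controls of A-C standing apart from all other samples in SP100-204 and SP100-203. SP100-204, a protein-coding transcript of 15 exons, was at 23.3 and 24.0 TPM in controls A1 and A2 and between 0.38 and 1.28 TPM in the other 10 samples. It made up 47.7% and 52.0% of SP100 in A1 and A2 and at most 2.13% elsewhere. SP100-203, a protein-coding transcript of 23 exons, was at 0.00 and 0.11 TPM in A1 and A2, at 10.96 and 17.65 in D1 and D2, and between 37.8 and 55.7 TPM in the 8 treated samples. By these estimates SP100-204 was above SP100-203 in the controls of A-C and below it in the controls of D-F and in all treated samples. SP100-201, of 25 exons, was at 1.45 and 2.1 TPM in A1 and A2, at 3.18 and 2.17 in D1 and D2, and between 5.45 and 16.11 TPM in the treated samples. SP100-202, of 29 exons, was at 0.00 and 0.10 TPM in A1 and A2, at 6.53 in D1 and 0.00 in D2, and between 19.9 and 30.7 TPM in the treated samples.

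The point where SP100-204 and SP100-203 part is shown because their levels went in opposite directions in A-C. Both share the 40 bases in lower case, at 230470059 to 230470098 on chromosome 2 (GRCh38, GENCODE release 29, plus strand), and capitals mark what follows. SP100-204 reads on past the splice point, with its next bases at 230470099 to 230470109, whereas SP100-203 is spliced to an exon that starts at 230473324.
SP100-204: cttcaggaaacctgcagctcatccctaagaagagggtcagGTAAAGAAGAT
SP100-203: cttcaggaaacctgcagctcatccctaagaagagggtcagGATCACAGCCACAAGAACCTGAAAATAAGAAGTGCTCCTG
SP100-204 has 0 stretches of 31 bases that no other SP100 transcript holds, and SP100-203 has 5.30% of its own, so the division of reads between them rests on an estimate by the authors' program. Estimated counts of SP100-204 were 342 and 454 in A1 and A2 and between 7 and 19 elsewhere.

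Of 17 tested transcripts of SP100 (19 listed), edgeR called 4 at 200 ng/ml and 1 at 20 ng/ml, where 0.494% and 0.303% of the 75876 tested transcripts were called. SP100-203 was higher at both doses (edgeR adjusted p = 0.011 and 0.013). Its fitted fold over both sets depends on the A-C controls, with 0 and 3 counts, and is not given as a size. The D-F controls had 207 and 350 counts, and the mean TPM of SP100-203 was 14.3 in D, 40.6 in E and 40.4 in F. At 200 ng/ml SP100-213 (log2 fold change 2.17, SE 0.298, adjusted p = 0.026) and SP100-219 (2.44, SE 0.333, adjusted p = 0.025), both annotated as retained introns, were higher. SP100-204 was lower (-2.17, SE 0.310, adjusted p = 0.031). Its fold within A-C was -4.68 on the log2 scale (edgeR adjusted p = 0.013) and within D-F 0.34 (adjusted p = 1.00), and the difference between the sets, at 5.02, had an adjusted p of 0.065. Leaving out any single sample but D1 ended the call of SP100-204 at 200 ng/ml (adjusted p from 0.076 to 0.15), and that of SP100-219 was kept only without C2. No fit that left out a sample kept the call of SP100-213 (adjusted p from 0.0504 to 0.15). SP100-203 was called in 10 of 12 such fits at 200 ng/ml, with adjusted p = 0.070 without D1 and 0.067 without D2. Over the 17 tested transcripts the median log2 fold change was 2.17 at 200 ng/ml and 1.66 at 20 ng/ml, against -0.05 and -0.02 over all tested transcripts, and 16 of 17 were above 0 at each dose. All 17 divide the reads of the same gene, and the filter on low counts could be passed through treated samples alone. The medians and the 16 of 17 therefore describe the gene again and are no further support.

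**Figure D3:**
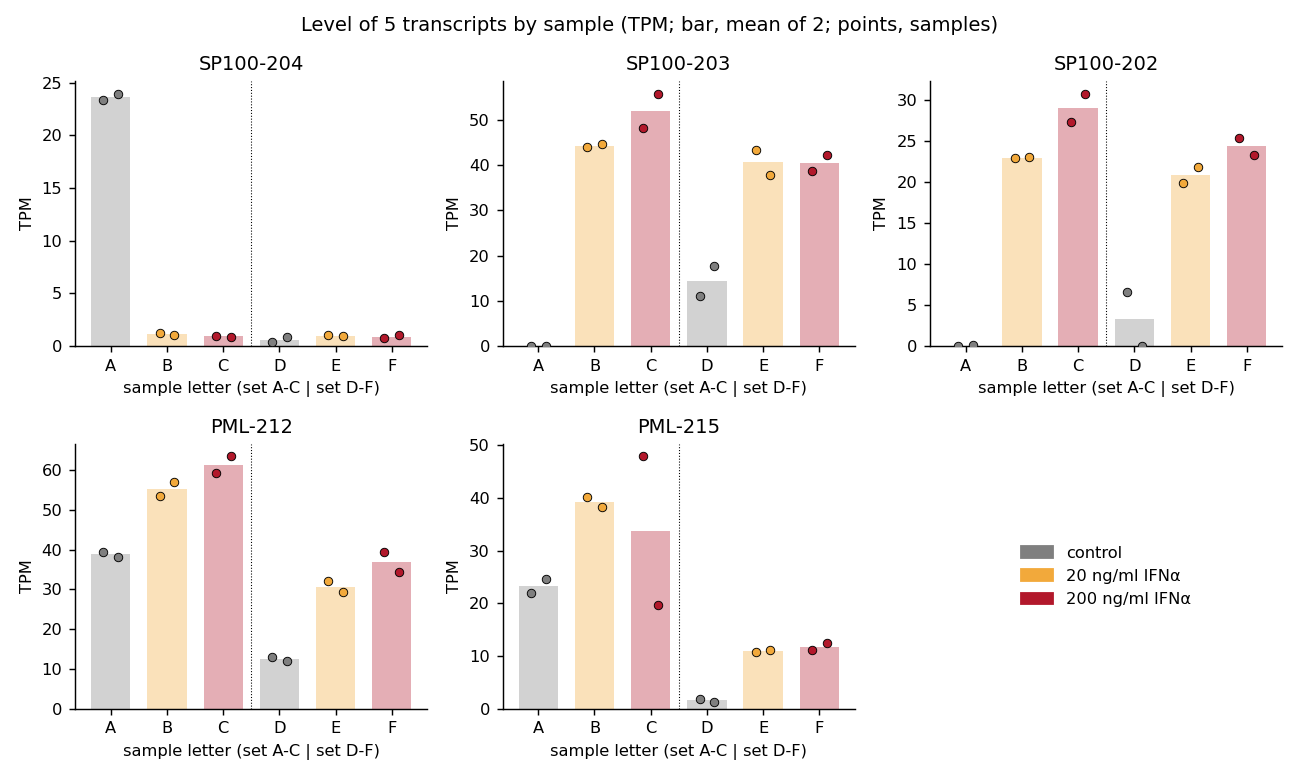
TPM of 3 SP100 and 2 PML transcripts in each sample (points) by sample letter, with the mean of the 2 replicates as a bar, in grey for controls, orange for 20 ng/ml and red for 200 ng/ml IFNα. SP100-204 is high in the controls A alone (23.3 and 24.0 TPM), where SP100-203 is at 0.00 and 0.11 TPM.

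Most PML transcripts had higher values in treated samples. PML-212, annotated as a retained intron and 4620 bases long, was the most abundant of the 22 by mean share. It was at 39.4 and 38.3 TPM in A1 and A2, at 53.5 and 57.1 in B1 and B2 and at 59.3 and 63.5 in C1 and C2. In D-F it was at 13.1 and 11.9 TPM in D1 and D2, at 32.1 and 29.4 in E1 and E2 and at 39.3 and 34.4 in F1 and F2. Within each set all treated samples lay above the controls. Its share of PML was between 31.7% and 39.6% in the 12 samples, and that share moved by 1.55 percentage points from control to 200 ng/ml (exact permutation p = 0.67). It was the 1 of 21 tested PML transcripts that edgeR called, where 0.494% of all tested transcripts were, at 200 ng/ml (log2 fold change 1.02, SE 0.0894, edgeR adjusted p = 0.0035), and it was at 0.84 (SE 0.0891, adjusted p = 0.011) at 20 ng/ml, under 2-fold. DESeq2 called 17 PML and SP100 transcripts at 200 ng/ml, where edgeR called 5. Without D2 or without F1 the value at 200 ng/ml was 0.99 or 0.96 and no longer 2-fold. Of the 21, 19 were above 0 at 200 ng/ml with a median of 0.76, and 17 were above 0 at 20 ng/ml with a median of 0.87. These 21 also divide the reads of the same gene and passed the same filter, so their number and medians are no further support.

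PML-212 keeps intron sequence after a coding exon, and its reads are better set apart than those of most PML transcripts, with 76.6% of its stretches of 31 bases in no other PML transcript. Of its 4620 bases, 3515 (76.1%) follow that exon without a splice, at 74024928 to 74028442 on chromosome 15. The libraries were of total RNA, and unspliced PML RNA holds these same intron bases. The level of PML-212 therefore cannot be told apart from that of unspliced PML RNA. The join is shown against PML-215, a protein-coding transcript, with the 40 shared bases at 74024888 to 74024927 in lower case and what follows in capitals.
PML-212: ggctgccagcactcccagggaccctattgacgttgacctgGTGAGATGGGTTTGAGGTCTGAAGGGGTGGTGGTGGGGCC
PML-215: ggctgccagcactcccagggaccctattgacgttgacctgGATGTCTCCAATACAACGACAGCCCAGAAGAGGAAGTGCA
PML-215 is spliced there to an exon that starts at 74033156. It was at 22.1 and 24.6 TPM in A1 and A2, 40.2 and 38.3 in B1 and B2 and 47.9 and 19.6 in C1 and C2, and at 1.80 and 1.35 in D1 and D2, 10.8 and 11.2 in E1 and E2 and 11.1 and 12.5 in F1 and F2. Its share of PML was 22.2% and 22.4% in A1 and A2 and 4.37% and 3.59% in D1 and D2, and its level was lower in D than in A (log2 difference of -3.99, edgeR adjusted p = 0.0046). At 200 ng/ml it was at 1.62 (SE 0.279, edgeR adjusted p = 0.065). In C2, where PML-215 was low, PML-201 stood at 27.0 TPM against 0.01 to 0.56 TPM in the other 3 samples at that dose, and PML-201 has 0 stretches of 31 bases of its own. PML-202, PML-203, PML-216 and PML-218 each took between 1.03% and 11.98% of PML in every sample.

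The share of protein-coding transcripts in PML was 54.3% ± 4.01 in controls and 56.5% ± 3.27 at 200 ng/ml (SD, n = 4, exact permutation p = 0.50). In SP100 it was 62.1% ± 6.95 and 64.3% ± 7.14 (SD, n = 4, exact permutation p = 0.94). Neither share differed beyond the spread between samples. PML-222, a retained intron of 371 bases, had a lower share of PML at 200 ng/ml in both sets, with 8.93% ± 1.44 in controls and 3.53% ± 1.34 at 200 ng/ml (SD, n = 4, exact permutation p = 0.0556, the smallest possible). Its level did not pass the test, with a log2 fold change of -0.37 (SE 0.369, edgeR adjusted p = 0.86).

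**Figure D4:**
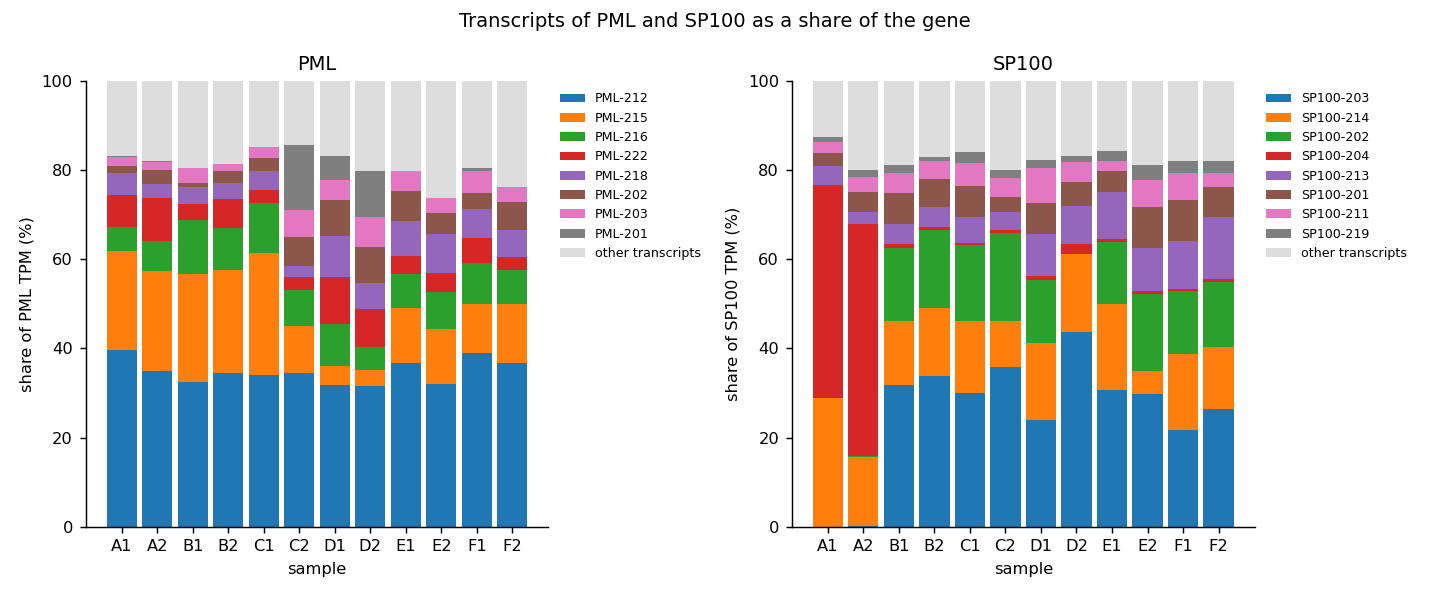
Share of each named transcript in the TPM of PML (left) and SP100 (right) in the 12 samples, as stacked bars in percent, with the remaining transcripts in pale grey. PML-212 keeps between 31.7% and 39.6% of PML in every sample, whereas SP100-204 takes 47.7% and 52.0% of SP100 in A1 and A2 and at most 2.13% in any other sample.

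Other genes of the bodies were followed from a list. Of 16 partners, 1 was called higher and 0 lower at 200 ng/ml, where 1.58% and 0.552% of all genes were, with a median log2 fold change of 0.15 against -0.01 over all genes tested. The called gene was ISG20, an interferon-induced exonuclease found in nuclear bodies, whose mean TPM was 6.57, 47.4 and 51.5 in A, B and C and 3.39, 33.9 and 69.7 in D, E and F. Its log2 fold change was 3.24 at 200 ng/ml (SE 0.112) and 2.59 at 20 ng/ml (SE 0.110). Whatever the fold, 4 partners were higher and 2 lower at an edgeR adjusted p of at most 0.05. ATRX, the partner of DAXX, was at -0.18 (edgeR adjusted p = 0.25) at 200 ng/ml. HIRA, another chaperone of replacement histones, was at 0.50 (SE 0.106, adjusted p = 0.016) and MORC3, an ATPase of the bodies, at 0.39 (adjusted p = 0.036), both under 2-fold. HIPK2, a kinase of the bodies, was at -0.23 (SE 0.0489, adjusted p = 0.018). ATRX, HIRA, MORC3 and HIPK2, and SUMO3 and SP140 in what follows, were named after their values had been seen.

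None of the 20 genes of the SUMO pathway reached 2-fold at 200 ng/ml, with a median log2 fold change of 0.01 and values from -0.74 to 0.35. At 20 ng/ml 1 of 20 was called lower, with 0.186% of all genes, and this was SUMO3 (-1.43, SE 0.294, edgeR adjusted p = 0.027), whose counts ranged from 566 to 3240 over the samples and whose mean TPM was 189, 68.0 and 178 in A, B and C and 124, 51.3 and 51.4 in D, E and F. The 8 tested of 9 relatives with SAND, PHD or bromodomain modules had a median of -0.10, and SP140 alone passed 2-fold. It had between 0 and 78 counts per sample and was at 1.297 (SE 0.561, edgeR adjusted p = 0.20). AIRE was at 0 counts in all 12 samples.

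**Figure D5:**
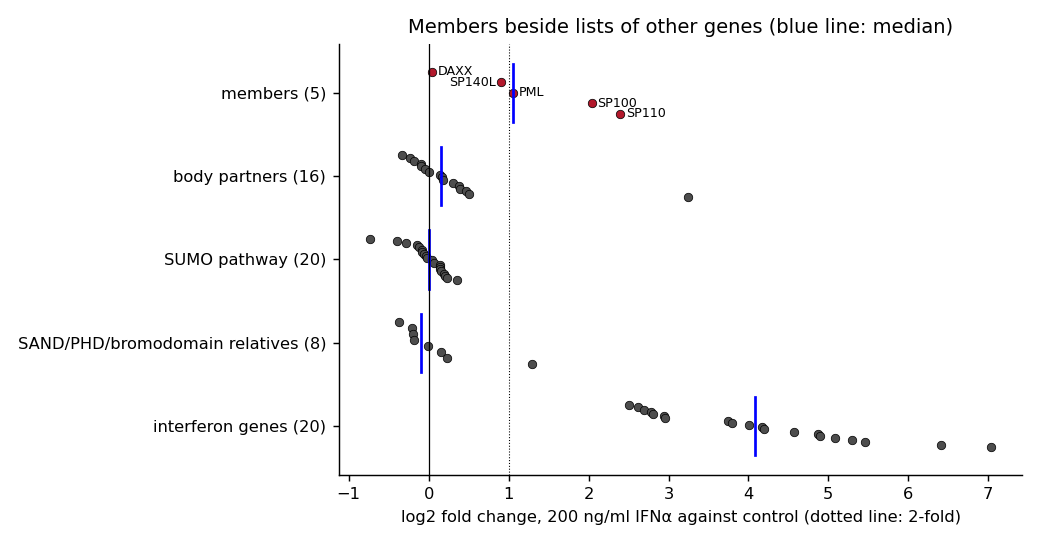
Log2 fold change at 200 ng/ml IFNα against control for the members (red) and for the tested genes of 4 other lists (grey), each point a gene, with the list median as a blue line and 2-fold as a dotted line. The members spread from 0.04 (DAXX) to 2.39 (SP110) with a median of 1.06, the partners have a median of 0.15 with ISG20 at 3.24, and the medians of the SUMO pathway and the interferon genes are 0.01 and 4.09.

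Over the 12 samples, the genes whose log2 CPM followed each member most closely are given by Pearson's r as a description, since the samples share 2 lines and 3 doses. MOV10, CASP1 and HK2 were closest to PML (r from 0.987 to 0.992). DDX58, HERC6 and SAMD9 were closest to SP100 (0.992 to 0.994), and PNPT1, PARP9 and CHMP5 to SP110 (0.985 to 0.988). RNF213 was closest to SP140L (0.964), and MEA1 was the named gene closest to DAXX (0.865). Among the members, SP100 and SP110 were most alike (0.976), whereas PML and SP100 were at 0.640.

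Total estimated counts were between 10517448 and 16056734 per sample. As a look at treated against untreated labels, all 20 listed interferon genes were called higher at both doses, with median log2 fold changes of 4.09 at 200 and 3.69 at 20 ng/ml. The list was chosen with earlier results of these data known, so this is no independent check of the labels. Nor does it check which letter had which dose. Between the doses none of the 20 reached 2-fold, and 5 were higher at 200 ng/ml at an edgeR adjusted p of at most 0.05. All 8 markers of squamous epithelium were measured and 1, KRT14, was called higher at 200 ng/ml (edgeR adjusted p = 0.039), against 1.58% of all genes. Its fold is not given, since it had 3 counts or fewer in each D-F sample. The 8 markers stood at a summed 2574 to 3155 TPM in A-C and 1156 to 1370 TPM in D-F. Of 7 leukocyte markers, 6 were at 3 counts or fewer in every sample, among them PTPRC and CD3E, and the 7 summed to at most 2.33 TPM. Endothelial markers summed to 15.3 to 21.7 TPM in A-C and at most 0.733 in D-F, and 1 of the 3 passed the filter on low counts. PECAM1 was at 3 counts or fewer in each A-C sample, and VWF and CDH5 in each D-F sample. The 5 fibroblast markers summed to 4.78 to 14.0 TPM. DCN was at 3 counts or fewer in every sample, and COL3A1 and LUM in each D-F sample. The part of these markers in the difference of PML between the sets was not tested. Stretches of 31 bases shared with other genes made up 2.102% of PML, 5.92% of SP100 and 0.930% of SP110. They made up 20.03% of SP140L, most of them with SP140. For DAXX they made up 12.9%, nearly all with AL662820.1, which overlaps it on the same strand. The deposited DAXX gene reaches to 33329286, as AL662820.1 does, whereas DAXX in GENCODE 29 reaches to 33323016. Of its 13 deposited transcripts, 11 are in GENCODE 29. Whether reads of AL662820.1 are part of the DAXX counts was not tested. SP140 overlaps SP110 on the opposite strand. HMGB1P3 and RN7SL834P overlap SP100 on the same strand, with 182 and 202 estimated counts in total over the 12 samples. HMGB1P3 holds 514 of the 755 stretches that SP100 shares with other genes. How reads were divided between such genes was not tested.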

How the data were processed

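RNA was taken from Cal27 and HN30 cells, and strand-specific libraries were built from its total RNA once ribosomal RNA had been depleted. The submitters' processing notes name Trimmomatic 0.36, HISAT2 2.1.0 and StringTie 1.3.3b with GRCh38.p10, without their roles. The annotation release and the strand setting of the counting are not given in the sources used here. The authors deposited estimated counts, FPKM and TPM for each gene and transcript. The deposited estimated counts were whole numbers, and FPKM, also deposited by the authors, was not used here. TPM values, scaled by the authors for length and depth, are given as levels and were not tested as counts.

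The members and lists were chosen with earlier results of these data known. Estimated counts were fitted with edgeR 4.0.16 in R 4.3.3 (TMM scaling, filterByExpr, quasi-likelihood test, Benjamini-Hochberg adjustment over all genes or transcripts tested), with the 6 letters as groups. Calls needed a 2-fold difference and an adjusted p-value of at most 0.05, where the study's methods used a fold and a t-test. SEs were taken from each log2 fold change and its F value, and 95% intervals are from the SE. Ratios and shares were tested by exact two-sided permutation of doses within line sets (36 arrangements). DESeq2 1.42.0, other scaling, no filter, a replicate block, fits of the compared groups and fits without single samples were alternatives. The fit was also run on simulated data with planted differences and no difference between line sets. The outcome is not given here, and no call above rests on it. Named transcripts were those called or with a mean share of at least 5% of the gene in a letter, and named genes were the members, called list genes and the 3 closest genes. Sequences came from GENCODE 29 and RefSeq (GRCh38.p14), with promoters matched for 3 of 5 members.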

Additional observations from a re-analysis of the deposited data

Results flagged for a closer look

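Of 126 groups of 4 samples at 1 dose that were searched for a sample far from the others, 12 had one. About 1 in 20, or 6.3, would be expected of independent groups that each have a single spread. These groups each hold both line sets, and levels and shares of a transcript come from the same reads. The 6.3 is therefore only a rough guide, and some samples appear under both a level and a share. For levels, PML-201 in C2 was at 27.0 TPM against 0.01 to 0.56 in the other samples at 200 ng/ml, and PML-222 in F2 was at 2.55 TPM against 5.23 to 5.57. Among the controls, SP100-202 in D1 was at 6.53 TPM against 0.00 to 0.10, and SP100-214, a retained intron, in A1 was at 14.2 TPM against 7.12 to 7.85.

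For shares of the gene at 200 ng/ml, PML-201 in C2 was at 14.6% of PML against 0.0107% to 0.556%, PML-215 in C1 at 27.4% against 10.6% to 13.3%, and PML-222 in F1 at 5.53% against 2.72% to 2.99%. Among the controls, SP100-202 in D1 was at 14.3% of SP100 against 0.00% to 0.217%, and SP100-214 in A1 at 28.9% against 15.5% to 17.6%. At 20 ng/ml, protein-coding transcripts made up 60.7% of PML in B1 against 56.7% to 57.0% in the other samples. In E1 they made up 57.2% of SP100 against 68.7% to 69.0%, and retained introns 42.8% against 30.96% to 31.3%, which are the same reads counted from either side. PML-201 and SP100-202 have 0 stretches of 31 bases that no other transcript of their gene holds. How the estimate divided reads among such transcripts was not tested.

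The PML response at 200 ng/ml differed between the line sets by 0.54 on the log2 scale (SE 0.0956, edgeR adjusted p = 0.029), from 0.79 in A-C up to 1.33 for the D-F set.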

How the results depend on the processing

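The calls of members at 200 ng/ml, at 20 ng/ml and between the untreated sets held under each alternative run, and in all 12 fits without a single sample. The number of members called as differing between sets at 20 ng/ml, 0 with edgeR, was 1 at an unadjusted p and 1 with DESeq2. Of the transcripts, 5 were called at 200 ng/ml, against 21 at an unadjusted p, 17 with DESeq2, 2 without the filter on low counts, 1 with the replicate block, 1 with the compared groups only, and 0 (without D2) to 4 (without C2) when a sample was left out. At 20 ng/ml, 1 was called, against 21 at an unadjusted p, 12 with DESeq2, 0 with the replicate block and 0 to 2 when a sample was left out.

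The protein-coding share of PML moved by 2.17 points at 200 ng/ml by TPM (0.629 to 3.70 without single samples) and by -0.249 by counts, and that of SP100 by 2.14, with -1.82 to 6.10 without single samples and the lowest value without A1. Values near 0 changed sign. DAXX at 200 ng/ml was -0.01 without A1, -0.10 without C2, -0.06 without D2 and -0.03 without F1 (-0.10 to 0.16 over fits without 1 sample). DAXX at 20 ng/ml was -0.02 without A1, -0.03 without B1, -0.07 without D2 and -0.11 without E2 (-0.11 to 0.15). DAXX between doses was -0.0062 without the filter, -0.04 without B2, -0.13 without C2, -0.0031 without D1, -0.11 without E1 and -0.06 without F1 (-0.13 to 0.15). The difference between sets was 0.0103 for SP100 at 20 ng/ml without D1 (-0.18 to 0.0103), and 0.0696 and 0.0460 for SP110 at 200 ng/ml without A1 and D1 (-0.20 to 0.0696). PML-201 at 200 ng/ml was -2.15 without C2 and -0.15 without F1 (-2.15 to 1.89), and PML-222 at 20 ng/ml was 0.11 without A2, 0.12 without B1 and 0.03 without D1 (-0.32 to 0.12). The cause was not tested.

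The replicate number was not shown to pair the samples, since deviations from the letter means correlated at only -0.0453 to 0.0560 in pairs that carry 1 number. With the replicate block, the adjusted p was 0.082 for the PML difference between sets, 0.087 for SP100-203 and 0.041 for PML-212 at 200 ng/ml. Replicates differed by more than counting error, with a chi-square of 14.4 to 19.8 per degree of freedom. Transcript calls rest on few residual samples and on estimated counts.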
